A study of Mus musculus with 33 samples.

Results

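The tumor necrosis factor (TNF) superfamily was examined here in macrophages of mice with and without a Cre that deletes the transcription factor gene *Zeb2*. Its members were taken by name, as every gene whose symbol starts with Tnfsf or Tnfrsf, together with *Tnf*, *Lta*, *Ltb*, *Ltbr*, *Fas*, *Fasl*, *Cd27*, *Cd40*, *Cd40lg*, *Cd70* and *Eda2r*. This gave 43 of the 24421 genes in the count tables, of which 18 encode ligands, 16 receptors that bind TRAF adaptors, 5 receptors with a death domain and 4 decoy receptors. The naming rule uses no measured value.

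TNF superfamily ligands are mostly trimeric membrane proteins that can be shed from the cell surface. Death domain receptors such as TNFR1 and Fas couple to FADD, TRADD and RIPK1 and can lead to apoptosis, necroptosis or NF-κB activation, whereas receptors such as TNFR2, CD40, GITR and 4-1BB recruit TRAF proteins. Decoy receptors bind a ligand without passing on a full signal. In tissue macrophages the family is best known through TNF itself, a major product of the activated cell, and through the lymphotoxin and CD40 systems that connect macrophages with lymphocytes.

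RNA was sequenced in bulk from sorted Kupffer cells (KCs), the resident macrophages of the liver, and alveolar macrophages (AMs), those of the lung airspace. KCs of *Clec4f-cre*xZeb2 fl/fl mice were sorted by surface Tim4 into Tim4+ and Tim4- KCs (6 libraries each), and AMs of *Itgax-cre*xZeb2 fl/fl mice by CD11b into CD11b- and CD11b+ AMs (5 each). The control samples were CRE- KCs (6 libraries) and CRE- AMs (5 libraries) of Zeb2 fl/fl mice, so every group carries the floxed alleles. Their labels name no sort by Tim4 or CD11b. In comparisons of CRE+ with CRE- cells, the loss of *Zeb2* and the sort therefore cannot be told apart. The labels give neither age nor sex. *Clec4f-cre* is active in KCs and, per the study's reporter mice, also in a minor population of B cells. *Itgax-cre* is active in CD11c-expressing cells, which include dendritic cells. The study describes its CRE+ populations as mixtures of cells that have lost one or both copies of *Zeb2*.

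The 33 libraries held 9837240 to 24332306 counts in genes, with a median of 20683608. Levels are given as CPM, the count relative to the library size after TMM scaling, and 3 counts, the limit that a count of 0 allows, were worth 0.122 to 0.300 CPM. *Zeb2* itself was at means of 282, 174 and 169 CPM in CRE-, Tim4+ and Tim4- KCs, and at 195, 105 and 62.5 CPM in CRE-, CD11b- and CD11b+ AMs. Per the study, the deleted allele still yields a truncated *Zeb2* mRNA, so these counts do not measure intact *Zeb2*. *Timd4*, which encodes Tim4, had a mean of 2.80 CPM in Tim4- KCs against 381 CPM in Tim4+ KCs, and *Itgam*, which encodes CD11b, 265 CPM in CD11b+ AMs against 17.7 CPM in CD11b- AMs. *Ddx3y*, a Y-linked gene, was found in replicates 5 and 6 of each KC group, so those 6 libraries hold male cells. All 7 KC markers were detected in each KC group and all 7 AM markers in each AM group. With bulk RNA, fewer cells expressing a gene and less of its RNA per cell cannot be told apart, and the labels do not say whether libraries of one group came from separate mice, so p-values measure the spread between these libraries.

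A difference was called when the quasi-likelihood test of edgeR, adjusted by Benjamini-Hochberg over all genes tested, gave an adjusted p under 0.05 and the log2 fold change was above 1 in size. By this rule 20 of the 43 members were called in at least 1 of 8 comparisons. The share of all genes called in at least 1 of them was not taken. In CRE- KCs against CRE- AMs alone, 33.3% of all genes tested were called, so the count of 20 is no result about the family. Another 19 members were called in none and had a mean under 5 CPM in every group. These were the ligand genes *Cd40lg*, *Cd70*, *Fasl*, *Lta*, *Tnfsf4*, *Tnfsf8*, *Tnfsf11*, *Tnfsf18* and *Tnfsfm13* and the receptor genes *Cd27*, *Eda2r*, *Tnfrsf4*, *Tnfrsf8*, *Tnfrsf10b*, *Tnfrsf11b*, *Tnfrsf13c*, *Tnfrsf17*, *Tnfrsf19* and *Tnfrsf25*. The highest group mean among them was 1.87 CPM (*Tnfsfm13*), and at this depth several could not be told from 0. *Cd70* had 2 counts in all, both in Tim4+ KCs.

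The first comparison set the family in CRE- KCs against CRE- AMs, to see how it differs between both tissues when *Zeb2* is intact. Of 24 members with enough counts to be tested, 5 were higher in KCs and 9 were lower, while 20.9% of all 12145 genes tested were called higher and 12.4% lower. The median log2 fold change was -0.47 over the members and 0.03 over all genes tested. KCs had more *Cd40*, *Tnfsf10*, *Tnfrsf11a*, *Ltb* and *Tnfrsf14*, and AMs more *Tnf*, *Tnfrsf12a*, *Tnfrsf18*, *Tnfsf13*, *Tnfsf13b*, *Fas* and all 3 tested decoy receptors.

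Per kb of exon, receptors took the highest places in both tissues. In CRE- KCs, *Tnfrsf1a* (TNFR1) and *Tnfrsf1b* (TNFR2) stood at 137 and 133 CPM per kb, followed by *Tnfrsf21* at 58.4 and *Ltbr* at 55.6 CPM per kb. In CRE- AMs, *Tnfrsf1b* led at 177 CPM per kb, followed by *Tnfrsf21* at 98.4, *Tnfrsf1a* at 87.1 and the ligand *Tnf* at 39.9 CPM per kb. *Tnf* took the 4th place in AMs and the 10th in KCs, where it stood at 4.8 CPM per kb.

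*Tnf*, the founding ligand, lies at chr17:35199381-35202007 (GRCm38), 3.06 kb from *Ltb* and 1.16 kb from *Lta*. It ranged from a lowest of 3.15 through a median of 7.96 to a highest of 14.7 CPM in CRE- KCs, and stood at 55.5, 90.2, 52.8, 68.2 and 60.4 CPM in CRE- AMs. The groups did not overlap, and *Tnf* was 7.87 ± 3.9 CPM (SD, n = 6) against 65.4 ± 15.1 CPM (SD, n = 5) (log2 fold change -3.03, SE 0.29, edgeR adjusted p = 4.36e-07). *Tnfsf10* (TRAIL), a ligand of death receptors, went the other way, with lowest, median and highest values of 20.1, 30.1 and 40.5 CPM in CRE- KCs and 1.84, 2.25, 2.36, 1.93 and 1.43 CPM in CRE- AMs. This was again without overlap (log2 fold change 3.92, SE 0.21, edgeR adjusted p = 6.22e-10). In CRE- KCs, replicate 3 had the highest *Tnfsf10* and the highest summed liver endothelial markers (1919 CPM). Replicate 6 had the lowest of both (580 CPM for the markers). The part of endothelial cells in the *Tnfsf10* level was not tested. *Tnfsf13* (APRIL), a B cell and plasma cell survival ligand, was lower in KCs, with lowest, median and highest values of 5.35, 6.61 and 7.31 CPM against 10.8, 16.4, 15.2, 13.3 and 19.99 CPM in AMs (log2 fold change -1.22, SE 0.17, edgeR adjusted p = 2.43e-05). Its relative *Tnfsf13b* (BAFF) was at means of 1.22 and 3.71 CPM in CRE- KCs and AMs (log2 fold change -1.58, SE 0.64, edgeR adjusted p = 0.0443). That call of *Tnfsf13b* was lost when any of 7 libraries was left out (CRE- AM replicates 1, 2, 3 or 5 and CRE- KC replicates 1, 4 or 6, with adjusted p from 0.051 to 0.0867), with RLE scaling factors (adjusted p = 0.0519) or with no filter on low counts (adjusted p = 0.0515).

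Among the receptors, *Cd40*, the costimulatory receptor for the T cell ligand CD40L, separated both tissues most. It had lowest, median and highest values of 32.5, 45.6 and 56.3 CPM in CRE- KCs and stood at 0, 0, 0.0924, 0.193 and 0 CPM in CRE- AMs, where 6 counts were found over 5 libraries (log2 fold change 9.49, SE 0.39, edgeR adjusted p = 3.35e-11). *Tnfrsf11a* (RANK), the receptor for RANKL, was at 106, 125 and 153 CPM as the lowest, median and highest of CRE- KCs and at 33.2, 28.2, 40.6, 27.2 and 34.8 CPM in CRE- AMs, without overlap (log2 fold change 1.99, SE 0.12, edgeR adjusted p = 3.69e-09). *Tnfrsf14* (HVEM) had a mean of 3.04 CPM in CRE- KCs and was near 0 in CRE- AMs. On 389 counts against 2, the ratio of *Tnfrsf14* was 160 with a 95% counting interval of 43.9 to 1324, which covers counting error only (edgeR adjusted p = 1.39e-06).

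The opposite pattern held for *Tnfrsf12a* (Fn14), the receptor of TWEAK. It had lowest, median and highest values of 0.492, 1.32 and 1.94 CPM in CRE- KCs and stood at 24.9, 24, 21, 18.4 and 21 CPM in CRE- AMs (log2 fold change -4.05, SE 0.29, edgeR adjusted p = 1.94e-08). *Fas*, the death receptor for Fas ligand, was at 2.63, 6.63 and 7.26 CPM in CRE- KCs (lowest, median, highest) and 21.3, 17.6, 20.9, 23.2 and 24.6 CPM in CRE- AMs (log2 fold change -1.88, SE 0.22, edgeR adjusted p = 3.96e-06). Neither gene overlapped between the tissues.

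The abundant receptors differed by less. *Tnfrsf1a*, which has a death domain, was 356 ± 11.8 CPM (SD, n = 6) in CRE- KCs, with lowest, median and highest values of 341, 354 and 374 CPM, against 212, 212, 214, 243 and 246 CPM in CRE- AMs (log2 fold change 0.69, SE 0.06, edgeR adjusted p = 1.68e-07). *Ltbr*, the receptor for lymphotoxin, was at 109.8, 135 and 141 CPM in CRE- KCs (lowest, median, highest) and 80.7, 82.5, 86.8, 87.3 and 102 CPM in CRE- AMs (log2 fold change 0.61, SE 0.08, edgeR adjusted p = 1.46e-05). Both were higher in KCs without overlap and under the fold cut-off. *Tnfrsf1b* (log2 fold change -0.39, SE 0.07, edgeR adjusted p = 1.35e-04) and *Tnfrsf21* (log2 fold change -0.72, SE 0.06, edgeR adjusted p = 1.01e-07), the death receptor DR6, were lower in KCs, also without overlap and under the cut-off.

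**Figure D1:**
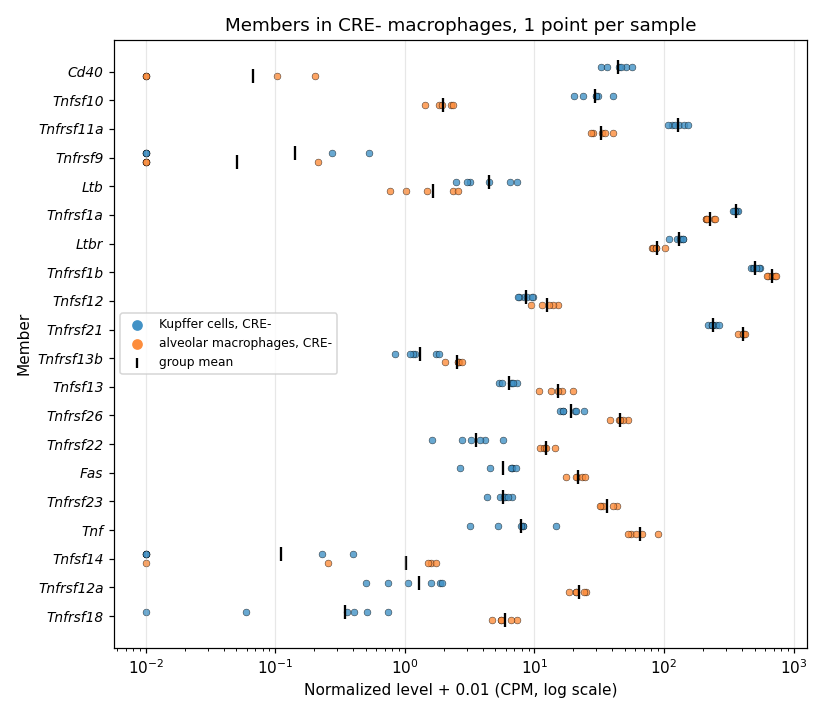
Level of the 20 members with a mean of at least 5 CPM in any group, in CRE- KCs (6 libraries) and CRE- AMs (5 libraries). The x axis is CPM on a log scale after adding 0.01 CPM, points are libraries, vertical ticks are group means, and members are ordered by the ratio of both means. *Cd40* and *Tnfsf10* lie further right in KCs, and *Tnf*, *Tnfrsf12a* and *Tnfrsf18* in AMs.

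The next comparisons asked how the family differed between the CRE+ fractions of KCs and CRE- KCs. Of 29 members tested in KCs, 5 were higher and 1 lower in Tim4+ KCs than in CRE- KCs, against 1.94% of all 12500 genes called higher and 0.376% lower. In Tim4- KCs, 3 members were higher and 1 lower than in CRE- KCs, against 3.43% of all genes called higher and 5.39% lower. Between both CRE+ fractions, 2 members were higher and 0 lower in Tim4- KCs than in Tim4+ KCs, with 0.44% and 5.01% of all genes called. At an unadjusted p under 0.05, edgeR had 5 members higher and 3 lower in that comparison, and DESeq2 and limma-voom also called 0 lower. The median log2 fold change of the members from CRE- KCs was 0.35 in Tim4+ KCs and 0.42 in Tim4- KCs, against -0.00 and -0.03 over all genes. Both CRE+ groups share the CRE- KCs as controls.

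In AMs, 26 members were tested. CD11b- AMs had 3 members higher and 0 lower than CRE- AMs, against 3.98% and 2.51% of all 11573 genes. At an unadjusted p under 0.05, edgeR had 3 members lower there, and DESeq2 and limma-voom called 0 lower as well. CD11b+ AMs had 9 members higher and 1 lower, against 9.57% and 5.68% of all genes, and they exceeded CD11b- AMs in 7 members and fell below them in 1, against 6.85% and 3.3% of all genes. The members' median log2 fold change from CRE- AMs was 0.11 in CD11b- AMs and 0.37 in CD11b+ AMs, against 0.00 and -0.01 over all genes. By role, 4 of 11 ligands, 3 of 8 TRAF-binding receptors and 2 of 3 decoy receptors were called higher in CD11b+ AMs than in CRE- AMs. These comparisons share their control samples as well, so their values are set side by side below.

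Of the ligands, *Ltb* was called in all 4 CRE+ groups. It encodes lymphotoxin beta, the membrane subunit that holds lymphotoxin at the cell surface for the receptor encoded by *Ltbr*, and lies at chr17:35194439-35196320 (GRCm38). In CRE- KCs it had lowest, median and highest values of 2.47, 3.81 and 7.36 CPM, in Tim4+ KCs 8.27, 9.29 and 14.2 CPM and in Tim4- KCs 11.4, 20.1 and 36.1 CPM. Neither CRE+ group overlapped CRE- KCs. Among CRE- cells it was higher in KCs than in AMs (log2 fold change 1.48, SE 0.41, edgeR adjusted p = 0.00571). *Ltb* was 4.48 ± 2.02 CPM (SD, n = 6) in CRE- KCs, 10.3 ± 2.3 CPM (SD, n = 6) in Tim4+ KCs (log2 fold change 1.17, SE 0.28, edgeR adjusted p = 0.013) and 21.4 ± 8.47 CPM (SD, n = 6) in Tim4- KCs (log2 fold change 2.24, SE 0.29, edgeR adjusted p = 7.94e-06). Tim4- KCs exceeded Tim4+ KCs, with some overlap (log2 fold change 1.07, SE 0.28, edgeR adjusted p = 0.0136). That call was lost without Tim4- replicate 3, the library with the highest *Ltb*, where the log2 fold change was 0.85.

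The same gene was at 0.762, 2.35, 1.02, 2.55 and 1.48 CPM in CRE- AMs, 2.74, 2.21, 4.77, 3.64 and 4.02 CPM in CD11b- AMs and 10.7, 11.4, 7.56, 13.5 and 18.7 CPM in CD11b+ AMs. All 5 CD11b+ libraries lay above every library of both other AM groups, whereas CD11b- and CRE- AMs overlapped. The *Ltb* change from CRE- AMs was smaller in CD11b- AMs (log2 fold change 1.09, SE 0.33, edgeR adjusted p = 0.0198) than in CD11b+ AMs (log2 fold change 2.91, SE 0.34, edgeR adjusted p = 6.17e-07), and CD11b+ AMs were above CD11b- AMs (log2 fold change 1.82, SE 0.32, edgeR adjusted p = 1.53e-04). The CD11b- call was lost without CRE- AM replicate 1 or 3 or CD11b- replicate 3 (log2 fold change 0.91 to 0.96) and with limma-voom (adjusted p = 0.0662). The difference between the mean change in KCs and the mean change in AMs was not past the threshold (edgeR adjusted p = 0.702), with a log2 difference of -0.29 and an SE of 0.39.

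The ZEB proteins are known to bind E-boxes of the form CAGGTG, which reads as CACCTG on the other strand. That motif was searched on both strands in RefSeq promoter windows of 300 bases (250 before and 50 after a start, GRCm38.p6), which were given for 33 members with 37 windows. It was in 10 of these 37 windows, or 27.0%, and in 20.2% of all 32851 windows. Of the 13 members called in a comparison of CRE+ with CRE- cells or between CRE+ fractions, 9 had a window and 4 of them held the E-box. The stretches around those 4 motifs are shown 5′ to 3′ on the gene's strand because they belong to members that rose, with the E-box in capitals. They lie at chr17:35194429-35194458 (*Ltb*, plus strand), chr4:156026079-156026108 (*Tnfrsf18*, plus strand), chr4:150920154-150920183 (*Tnfrsf9*, plus strand) and chr17:57194328-57194357 (*Tnfsf14*, minus strand).
Ltb: ccgggcagggggCAGGTGtgtgggtctgcg
Tnfrsf18: aaggggtgcccaCAGGTGgcagcagtggca
Tnfrsf9: cttcctgaaattCAGGTGctgcaggcagcc
Tnfsf14: ccccatccatccCACCTGagtcacattttc
The same motif was in the windows of *Tnfrsf11a*, *Tnfrsf13c*, *Tnfrsf19*, *Tnfrsf1b*, *Tnfrsf8* and *Tnfsf10*, which were called in none of these comparisons. A match to the NF-κB consensus was in 4 of the 37 windows, or 10.8%, and in 8.46% of all windows. The *Ltb* window held one of each, close together in the 150 bases before the start (chr17:35194357-35194506, plus strand), printed here with the NF-κB match and then the E-box in capitals.
Ltb: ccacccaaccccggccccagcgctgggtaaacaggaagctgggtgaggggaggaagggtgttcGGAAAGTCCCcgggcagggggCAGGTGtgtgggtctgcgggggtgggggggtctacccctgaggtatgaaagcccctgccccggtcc
A match describes the letters only, and binding was not measured in these data.

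*Tnf*, the neighbour of *Ltb*, was called in no *Zeb2* comparison. Its lowest, median and highest values were 8.05, 9.82 and 17.2 CPM in Tim4+ KCs and 8.86, 12.8 and 14.3 CPM in Tim4- KCs, which overlapped CRE- KCs (edgeR adjusted p = 0.395 and 0.127). In AMs, *Tnf* was at 59.2, 101, 73.9, 58.9 and 67.8 CPM in CD11b- AMs and 38.5, 51, 37.5, 34.2 and 28.3 CPM in CD11b+ AMs. CD11b+ AMs lay below all libraries of CRE- AMs (log2 fold change -0.80, SE 0.17, edgeR adjusted p = 8.39e-04) and of CD11b- AMs (log2 fold change -0.94, SE 0.17, edgeR adjusted p = 2.63e-04), with changes under the fold cut-off. *Lta*, the third gene of this cluster, had 5, 20 and 27 counts in all over CRE-, Tim4+ and Tim4- KCs and 2, 0 and 7 over CRE-, CD11b- and CD11b+ AMs.

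Among the ligands, *Tnfsf14*, *Tnfsf9* and *Tnfsf15* also rose in CD11b+ AMs. *Tnfsf14* (LIGHT), a ligand of HVEM and of the lymphotoxin beta receptor, was at 0, 0.245, 1.57, 1.49 and 1.74 CPM in CRE- AMs, 1.67, 2.17, 3.32, 1.97 and 0.993 CPM in CD11b- AMs and 2.87, 7.82, 8.71, 6.85 and 5.14 CPM in CD11b+ AMs. Its CD11b+ libraries were all above the CRE- libraries (log2 fold change 2.62, SE 0.61, edgeR adjusted p = 0.00161). The difference of *Tnfsf14* from CD11b- AMs (log2 fold change 1.61, SE 0.58, edgeR adjusted p = 0.0361) was lost without CD11b- replicates 1, 2, 4 or 5 or CD11b+ replicates 2, 3 or 4 (log2 fold change 1.44 to 1.64, adjusted p 0.0575 to 0.0822). In KCs its highest library was at 0.388 CPM. *Tnfsf9* (4-1BB ligand) lies in one row with *Cd70* and *Tnfsf14* on chromosome 17, with gaps of 38.2 and 39.7 kb. It had means of 0.113, 0.411 and 2.99 CPM in CRE-, CD11b- and CD11b+ AMs (*Tnfsf9*, log2 fold change 4.63, SE 0.74, edgeR adjusted p = 3.38e-05). *Tnfsf15* (TL1A) had means of 0.0204, 0.245 and 1.86 CPM in the same groups (edgeR adjusted p = 2.35e-04). On 170 counts against 2, its ratio of CD11b+ to CRE- AMs was 97.8 with a 95% counting interval of 26.7 to 815. Both genes were also above CD11b- AMs, *Tnfsf9* with log2 fold change 2.82, SE 0.65, edgeR adjusted p = 0.00198 and *Tnfsf15* with log2 fold change 2.90, SE 0.90, edgeR adjusted p = 0.0156.

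*Tnfsf12* (TWEAK), the ligand of Fn14, was the one member called lower in CRE+ than in CRE- KCs. It had lowest, median and highest values of 7.45, 8.49 and 9.76 CPM in CRE- KCs, 2.64, 4.02 and 4.81 CPM in Tim4+ KCs and 1.84, 4.4 and 7.29 CPM in Tim4- KCs. Neither CRE+ group overlapped CRE- KCs, and both changes were called, with log2 fold change -1.14, SE 0.25, edgeR adjusted p = 0.00679 for Tim4+ and log2 fold change -1.01, SE 0.25, edgeR adjusted p = 0.00565 for Tim4- KCs. The second of these lies at the fold cut-off and was lost in 9 of the fits that left out 1 library (CRE- KC replicates 4 or 6, Tim4+ replicates 1, 2, 5 or 6 and Tim4- replicates 3, 4 or 6), with a log2 fold change of -0.85 without Tim4- replicate 4. *Tnfsf12* overlaps *Tnfsfm13*, a read-through gene on the same strand, so its counts are uncertain. In AMs it was at 9.41, 15.2, 13.9, 12.9 and 11.5 CPM in CRE-, 13, 7.93, 4.49, 5.84 and 7.75 CPM in CD11b- and 17.2, 6.13, 6.19, 6.9 and 7.36 CPM in CD11b+ AMs, which overlapped, and was not called.

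*Tnfsf10* and *Tnfsf13* were called in no *Zeb2* comparison. *Tnfsf10* had lowest, median and highest values of 24.4, 31.2 and 50.5 CPM in Tim4+ KCs and 20.2, 25 and 30.2 CPM in Tim4- KCs, both overlapping CRE- KCs. Tim4+ replicates 2 and 3 had the highest *Tnfsf10* of their group (46.8 and 50.5 CPM) and the highest summed liver endothelial markers (3322 and 2374 CPM). In Tim4- KCs that sum was 355 to 514 CPM. In AMs it was at 3.96, 2.94, 0.983, 1.04 and 1.44 CPM in CD11b- and 3.35, 3.17, 4.25, 2.87 and 4.15 CPM in CD11b+ AMs, the latter above all CRE- libraries without passing the adjusted p (log2 fold change 0.84, SE 0.37, edgeR adjusted p = 0.0772). *Tnfsf13* stood at 17.4, 12.9, 14.8, 18 and 17.2 CPM in CD11b- AMs and 24.9, 20.4, 18, 24.1 and 22.8 CPM in CD11b+ AMs (log2 fold change 0.53, SE 0.15, edgeR adjusted p = 0.009, under the fold cut-off), and at 6.75, 8.29 and 9.48 CPM in Tim4+ KCs and 4.89, 8.03 and 9.66 CPM in Tim4- KCs as the lowest, median and highest values.

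**Figure D2:**
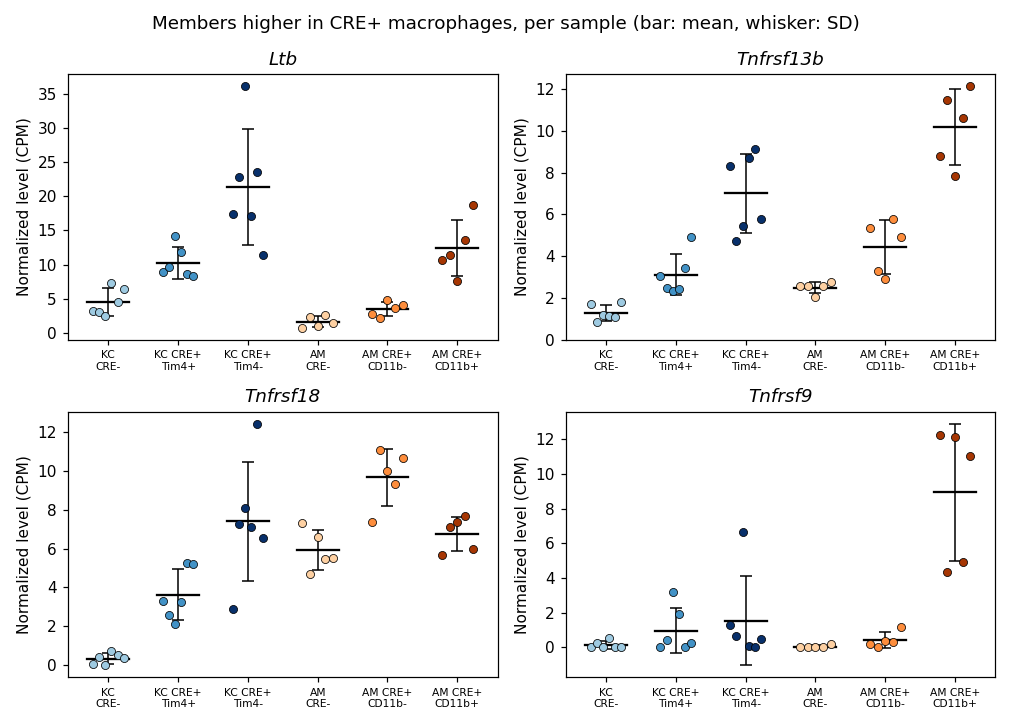
Levels of *Ltb*, *Tnfrsf13b*, *Tnfrsf18* and *Tnfrsf9* in the 33 libraries by group, in CPM on a linear axis, with 1 point per library, a bar at the group mean and whiskers of 1 SD. *Ltb* and *Tnfrsf13b* step up from CRE- to Tim4+ to Tim4- KCs and from CRE- to CD11b- to CD11b+ AMs, with overlap between some neighbouring groups.

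Of the TRAF-binding receptors, *Tnfrsf13b* (TACI), which binds BAFF and APRIL, rose in both CRE+ fractions of KCs and in CD11b+ AMs. It had lowest, median and highest values of 0.833, 1.17 and 1.81 CPM in CRE- KCs, 2.35, 2.77 and 4.91 CPM in Tim4+ KCs and 4.74, 7.03 and 9.11 CPM in Tim4- KCs. Both CRE+ groups lay above all CRE- KCs. *Tnfrsf13b* rose in Tim4+ KCs (log2 fold change 1.24, SE 0.28, edgeR adjusted p = 0.00751) and in Tim4- KCs (log2 fold change 2.41, SE 0.28, edgeR adjusted p = 2.55e-06), and was higher in the latter of these fractions (log2 fold change 1.17, SE 0.27, edgeR adjusted p = 0.00613). The Tim4+ call was lost with limma-voom (adjusted p = 0.0529). In AMs *Tnfrsf13b* was at 2.55, 2.59, 2.03, 2.55 and 2.76 CPM in CRE-, 5.33, 3.27, 2.9, 5.78 and 4.92 CPM in CD11b- and 8.78, 11.5, 7.82, 10.6 and 12.1 CPM in CD11b+ AMs, and none of the 3 groups overlapped another. CD11b+ AMs were higher than CRE- AMs (log2 fold change 2.01, SE 0.23, edgeR adjusted p = 4.62e-07) and than CD11b- AMs (log2 fold change 1.19, SE 0.22, edgeR adjusted p = 2.74e-04), while the change in CD11b- AMs was under the fold cut-off (log2 fold change 0.82, SE 0.23, edgeR adjusted p = 0.0107). The other BAFF receptor genes did not pass the filter in AMs, *Tnfrsf13c* (BAFFR) with a highest group mean of 1.5 CPM, in Tim4- KCs, and *Tnfrsf17* (BCMA) of 0.554 CPM, in CRE- KCs.

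*Ltb*, *Tnfrsf13b* and *Cd40* are also expressed by B cells. Of 6 B cell markers, 5 were in the files. Their summed level ranged from 48.7 to 92.2 CPM in CRE- KCs, 23.1 to 52.8 in Tim4+ KCs and 50.3 to 124 CPM in Tim4- KCs. Without *Cd79b*, the most abundant of them, the 3 ranges overlapped (7.72 to 33.4, 8.45 to 24.8 and 4.11 to 55.8 CPM). In AMs the sum was 6.26 to 11.5 CPM in CRE-, 2.38 to 5.03 in CD11b- and 7.03 to 14.5 CPM in CD11b+ libraries, and *Pax5*, which defines B cells, was at 0 counts in all AM libraries. Summed monocyte markers (6 of 6 in the files) were 83.8 to 309 CPM in CRE-, 112 to 370 in Tim4+ and 360 to 867 CPM in Tim4- KCs. *Plac8* made up most of the sum in CRE- KCs, and without it the ranges were 16.0 to 35.7, 48.6 to 233 and 139 to 464 CPM, with both CRE+ groups above all CRE- KCs. Of the 6 markers, 2 were called higher in each CRE+ fraction than in CRE- KCs, *Ccr2* (means of 4.96, 21.8 and 115 CPM in CRE-, Tim4+ and Tim4- KCs) and *Cx3cr1* (5.83, 77.9 and 163 CPM). From its single-cell data, the study defines KCs with *Ccr2* and *Cx3cr1* but without *Siglecf* and *Timd4* as putative monocyte-derived KCs new to the tissue. *Siglecf* had means of 4.51, 168 and 290 CPM in CRE-, Tim4+ and Tim4- KCs, so neither CRE+ fraction as a whole lacked its RNA. The study uses SiglecF as a marker of KCs without *Zeb2*. It also links Tim4 on KCs with the time since their arrival. *Ccr2* and *Cx3cr1* in CRE+ KCs therefore do not tell admixed monocytes from monocyte-derived KCs. The full sums were 6.03 to 11.1, 12.6 to 25.5 and 90.9 to 295 CPM in CRE-, CD11b- and CD11b+ AMs. No monocyte marker was at 0 in any of these groups. The part of B cells, monocytes or monocyte-derived KCs in the levels of *Ltb* and *Tnfrsf13b* was not tested.

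*Tnfrsf18* (GITR), a costimulatory receptor best known from T cells, changed more in KCs than in AMs. In CRE- KCs its lowest, median and highest values were 0, 0.37 and 0.731 CPM, in Tim4+ KCs 2.13, 3.29 and 5.24 CPM and in Tim4- KCs 2.9, 7.21 and 12.4 CPM. CRE- AMs were at 7.3, 4.7, 6.61, 5.49 and 5.52 CPM. Both CRE+ KC groups overlapped that range and neither overlapped CRE- KCs. *Tnfrsf18* rose in Tim4+ KCs (log2 fold change 3.40, SE 0.53, edgeR adjusted p = 2.68e-04) and in Tim4- KCs (log2 fold change 4.43, SE 0.55, edgeR adjusted p = 4.76e-06), and the CRE+ fractions did not pass the threshold between them (log2 fold change 1.03, SE 0.46, edgeR adjusted p = 0.162), although limma-voom called that difference of *Tnfrsf18* (log2 fold change 1.11, adjusted p = 0.0236). Among CRE- cells it was lower in KCs than in AMs (log2 fold change -4.10, SE 0.58, edgeR adjusted p = 2.34e-05). In CD11b- AMs it was at 7.36, 11.1, 9.97, 9.31 and 10.7 CPM, above all CRE- libraries but under the fold cut-off (log2 fold change 0.71, SE 0.17, edgeR adjusted p = 0.00514), and in CD11b+ AMs at 5.67, 7.1, 7.35, 7.7 and 5.96 CPM (edgeR adjusted p = 0.447). *Tnfrsf4* (OX40), 9.55 kb away on chromosome 4, had a highest group mean of 0.382 CPM, in CD11b+ AMs.

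*Tnfrsf9* (4-1BB), another costimulatory receptor of T and NK cells, rose in AMs from a level near 0. It was at 0, 0, 0, 0 and 0.204 CPM in CRE- AMs, 0.203, 0, 0.374, 0.289 and 1.19 CPM in CD11b- AMs and 12.3, 4.34, 12.1, 4.94 and 11 CPM in CD11b+ AMs. CD11b+ libraries were all above those of both other groups (log2 fold change 7.63, SE 0.91, edgeR adjusted p = 8.76e-07 against CRE- AMs and log2 fold change 4.42, SE 0.69, edgeR adjusted p = 4.92e-05 against CD11b- AMs). *Tnfrsf9* was called in CD11b- AMs as well (log2 fold change 3.20, SE 1.02, edgeR adjusted p = 0.0257), a call that rested on 41 counts and was lost without CD11b- replicate 5 or any of CRE- AM replicates 1 to 4 (log2 fold change 2.27 to 2.93, adjusted p 0.0553 to 0.122) and with limma-voom (adjusted p = 0.27). *Tnfrsf9* overlaps *Camta1* on the other strand and the strand setting of the counting is not given in the sources used here, so reads of both genes may not be told apart.

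In KCs *Tnfrsf9* had lowest, median and highest values of 0, 0 and 0.522 CPM in CRE-, 0, 0.316 and 3.22 CPM in Tim4+ and 0, 0.569 and 6.68 CPM in Tim4- KCs, and was not called (edgeR adjusted p = 0.286 and 0.0664). The change in Tim4- KCs, a log2 fold change of 3.51 with an SE of 1.37, was called by DESeq2 (adjusted p = 0.0335) and in edgeR with a term for libraries with *Ddx3y* counts (adjusted p = 0.0328) and without CRE- KC replicate 4 or Tim4- replicate 5. The highest library of either fraction was replicate 3. Those 2 libraries also had the highest summed NK cell markers (6 of 6 in the files), 30.5 CPM in Tim4+ replicate 3 and 62.0 CPM in Tim4- replicate 3, where CRE- KCs had 2.88 to 5.51 CPM. In AMs the NK sum was 2.20 to 4.94, 2.49 to 10.8 and 3.78 to 10.4 CPM in CRE-, CD11b- and CD11b+ libraries, with *Eomes* at 0 in CRE- and CD11b- AMs. The T cell markers (7 of 8 in the files), leaving out *Cd2*, which the AM groups had at means of 307 to 414 CPM, came to 1.48 to 4.02, 1.94 to 5.90 and 5.35 to 13.9 CPM. From CRE- to CD11b+ AMs, means went from 0.0385 to 4.32 CPM for *Cd4*, 1.02 to 2.54 CPM for *Lck* and 0.540 to 1.62 CPM for *Cd3e*. Those of *Cd3d* (0.303 and 0.373 CPM), *Cd3g* (0.383 and 0.480 CPM) and *Cd8a* (0.429 and 0.509 CPM) changed less. The part of lymphocytes in the *Tnfrsf9* level was not tested.

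Against CRE- cells of the same tissue, *Cd40* was called in CD11b+ AMs only, where it stayed far under its level in KCs. Its lowest, median and highest values were 43, 48.1 and 64.6 CPM in Tim4+ KCs and 53, 70.1 and 85.3 CPM in Tim4- KCs, which overlapped CRE- KCs, and the change in Tim4- KCs passed the adjusted p under the fold cut-off (log2 fold change 0.64, SE 0.14, edgeR adjusted p = 0.00199). In AMs it was at 0.152, 0, 0, 0.116 and 0.646 CPM in CD11b- and 2.93, 1.53, 1.47, 4.78 and 2.8 CPM in CD11b+ AMs. All CD11b+ libraries were above all libraries of CRE- AMs (log2 fold change 5.40, SE 1.02, edgeR adjusted p = 2.15e-04) and of CD11b- AMs (log2 fold change 3.85, SE 0.90, edgeR adjusted p = 0.0023), and all remained below the lowest KC library.

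*Tnfrsf12a* was the one member called lower in CD11b+ AMs. It went from the CRE- values given above to 19.5, 20.7, 13.9, 13.2 and 18.4 CPM in CD11b- AMs and 4.82, 8.69, 6.82, 7.7 and 7.999 CPM in CD11b+ AMs. CD11b+ AMs lay below every library of both other groups (log2 fold change -1.61, SE 0.17, edgeR adjusted p = 1.61e-07 against CRE- AMs and log2 fold change -1.26, SE 0.17, edgeR adjusted p = 7.71e-06 against CD11b- AMs). In KCs it stayed low, with lowest, median and highest values of 0.827, 1.32 and 1.92 CPM in Tim4+ and 0.762, 2.02 and 4.1 CPM in Tim4- KCs.

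*Tnfrsf1b*, *Ltbr* and *Tnfrsf11a* changed by less than the fold cut-off. *Tnfrsf1b* fell in both CRE+ fractions of KCs, from 465, 501 and 551 CPM in CRE- KCs to 371, 387 and 441 CPM in Tim4+ and 345, 410.1 and 443 CPM in Tim4- KCs as the lowest, median and highest values. Neither fraction overlapped CRE- KCs (log2 fold change -0.39, SE 0.07, edgeR adjusted p = 7.65e-04 and log2 fold change -0.35, SE 0.07, edgeR adjusted p = 6.93e-04). In AMs, *Tnfrsf1b* was at 629, 619, 684, 715 and 728 CPM in CRE-, 576, 591, 665, 621 and 684 CPM in CD11b- and 699.9, 727, 861, 762 and 726 CPM in CD11b+ libraries. *Ltbr* was at 126, 140.4 and 149.9 CPM in Tim4+ and 92.3, 125 and 136 CPM in Tim4- KCs (lowest, median, highest), and at 80.9, 91, 84, 73.3 and 88.2 CPM in CD11b- and 68.3, 60.9, 77.6, 66.6 and 68.6 CPM in CD11b+ AMs, lower in the latter than in CRE- AMs (log2 fold change -0.37, SE 0.08, edgeR adjusted p = 0.00103). *Ltbr* was called in no group in which its ligand gene *Ltb* was. *Tnfrsf11a* was at 109, 125 and 132 CPM in Tim4+ and 131, 139 and 168 CPM in Tim4- KCs, and at 35.1, 47.4, 38.4, 31.2 and 27.5 CPM in CD11b- and 44.8, 47.4, 46.4, 55.7 and 41.7 CPM in CD11b+ AMs, all 5 of the last above CRE- AMs (log2 fold change 0.51, SE 0.14, edgeR adjusted p = 0.00478).

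Of the 5 death domain receptors, 4 were tested and only *Fas* was called in a *Zeb2* comparison, in Tim4+ KCs. It had lowest, median and highest values of 7.41, 12 and 19.4 CPM in Tim4+ KCs, all above CRE- KCs (log2 fold change 1.06, SE 0.25, edgeR adjusted p = 0.00992), and 6.84, 7.21 and 10.5 CPM in Tim4- KCs, which overlapped CRE- KCs (log2 fold change 0.41, SE 0.25, edgeR adjusted p = 0.242). The Tim4+ call was lost without CRE- KC replicate 6 or Tim4+ replicate 3 (log2 fold change 0.88 to 0.91). In AMs *Fas* stood at 19.2, 21.7, 18.3, 23 and 23.7 CPM in CD11b- and 18.7, 20.9, 26.7, 25.2 and 28.7 CPM in CD11b+ AMs, which overlapped CRE- AMs.

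*Tnfrsf1a* was at 323, 340.04 and 357 CPM in Tim4+ KCs and 269, 355 and 391 CPM in Tim4- KCs (lowest, median, highest), and at 192, 203, 229.8, 205 and 205 CPM in CD11b- and 247, 244, 295, 267 and 274 CPM in CD11b+ AMs. *Tnfrsf21* fell in AMs, from 369, 407, 417, 407 and 421 CPM in CRE- AMs to 310.02, 364, 304, 273 and 297 CPM in CD11b- AMs and 242, 258, 217, 224 and 223 CPM in CD11b+ AMs. No 2 of these AM groups overlapped for *Tnfrsf21*, although the changes were under the fold cut-off (log2 fold change -0.38, SE 0.07, edgeR adjusted p = 5.79e-04 in CD11b- and log2 fold change -0.81, SE 0.07, edgeR adjusted p = 2.09e-08 in CD11b+ AMs). In KCs it had lowest, median and highest values of 217, 237 and 263 CPM in CRE-, 209, 245 and 282 CPM in Tim4+ and 201, 208 and 251 CPM in Tim4- KCs.

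The decoy receptor genes *Tnfrsf26*, *Tnfrsf22* and *Tnfrsf23* follow each other on chromosome 7 (chr7:143607659-143685872, GRCm38), with gaps of 6.08 and 16.1 kb. They are related in sequence, and how the authors' counting treated reads shared between them was not examined, so each one's own level is uncertain. *Tnfrsf26* was at 52.3, 45.1, 48, 46 and 38.2 CPM in CRE-, 71.9, 80.2, 104, 118 and 96.1 CPM in CD11b- and 162, 169, 185, 194 and 205 CPM in CD11b+ AMs. No AM group overlapped another, with log2 fold change 1.03, SE 0.12, edgeR adjusted p = 1.92e-06 in CD11b- and log2 fold change 1.98, SE 0.12, edgeR adjusted p = 4.52e-11 in CD11b+ AMs. The CD11b- call lies at the fold cut-off and was lost without CD11b- replicate 3 or 4 or CRE- AM replicate 5 (log2 fold change 0.94 to 0.99). In KCs its lowest, median and highest values were 15.7, 18.5 and 24 CPM in CRE-, 24.6, 30.9 and 31.8 CPM in Tim4+ and 27.9, 33.6 and 39.4 CPM in Tim4- KCs. Both CRE+ groups were above all CRE- KCs, with changes under the cut-off (log2 fold change 0.61, SE 0.12, edgeR adjusted p = 0.00265 and log2 fold change 0.81, SE 0.12, edgeR adjusted p = 4.56e-05).

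*Tnfrsf23* was at 32.6, 33.6, 43.5, 40.1 and 32.2 CPM in CRE- AMs, 44.8, 50.5, 45.3, 58.5 and 48.5 CPM in CD11b- AMs and 97.4, 106, 98.4, 95.2 and 95.3 CPM in CD11b+ AMs. The 3 groups did not overlap, and the rise was called in CD11b+ AMs (log2 fold change 1.42, SE 0.10, edgeR adjusted p = 2.90e-10) and under the fold cut-off in CD11b- AMs (log2 fold change 0.44, SE 0.10, edgeR adjusted p = 0.0018). In KCs it had lowest, median and highest values of 4.31, 5.86 and 6.74 CPM in CRE-, 10.5, 13.2 and 16 CPM in Tim4+ and 6.19, 11.7 and 16 CPM in Tim4- KCs, and was called in Tim4+ KCs (log2 fold change 1.17, SE 0.21, edgeR adjusted p = 8.01e-04) but not in Tim4- KCs (log2 fold change 0.93, SE 0.21, edgeR adjusted p = 0.00212). Their neighbour *Tnfrsf22* was not called in any *Zeb2* comparison. It stood at 14.3, 12, 11.1, 11.8 and 12.3 CPM in CRE-, 10.8, 10.5, 12.8, 12 and 10.8 CPM in CD11b- and 11.5, 11.5, 12.2, 17 and 12.3 CPM in CD11b+ AMs, and at 1.62, 3.5 and 5.66 CPM, 2.53, 4.52 and 6.13 CPM and 2.32, 4.17 and 7.29 CPM as the lowest, median and highest values of CRE-, Tim4+ and Tim4- KCs. Among CRE- cells all 3 genes were lower in KCs than in AMs, with log2 fold changes of -1.25 for *Tnfrsf26*, -1.78 for *Tnfrsf22* and -2.64 for *Tnfrsf23*.

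**Figure D3:**
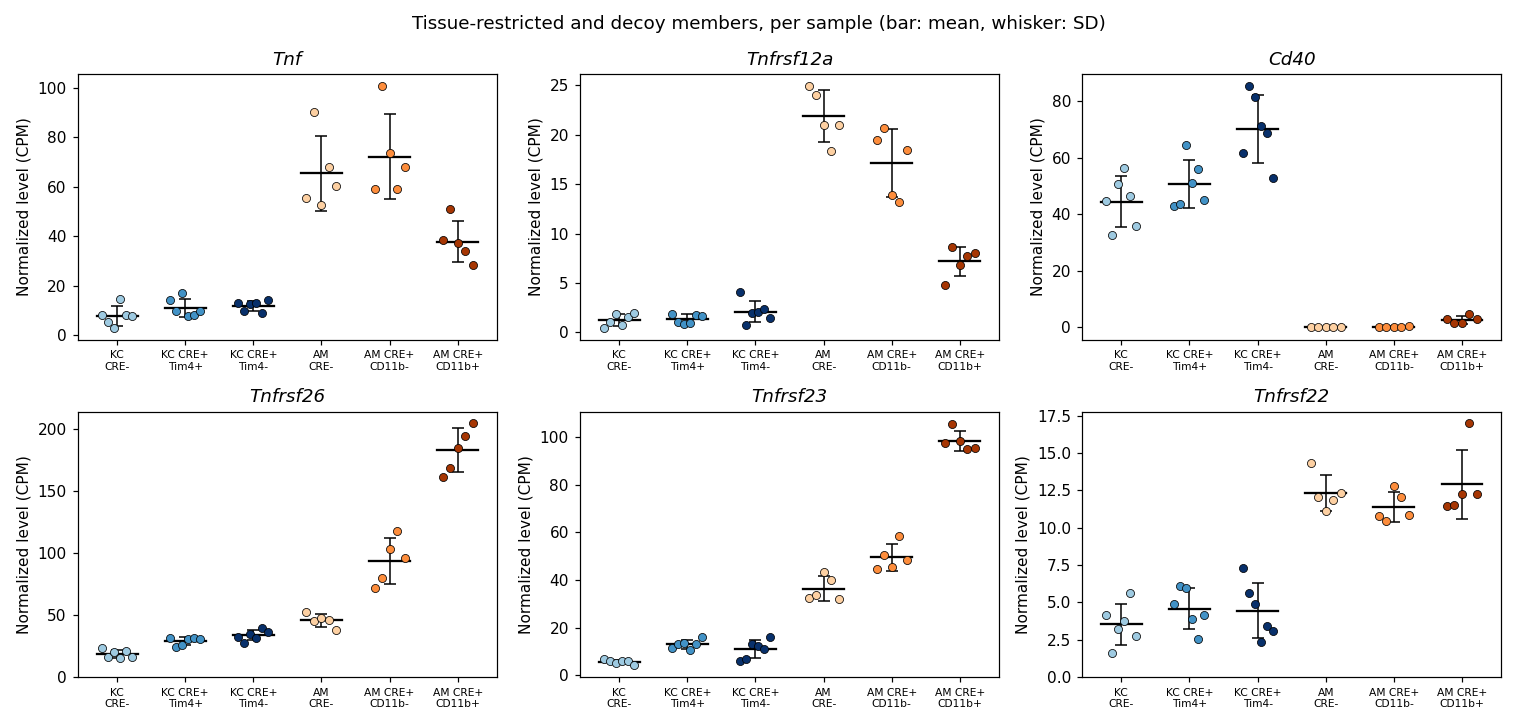
Levels of *Tnf*, *Tnfrsf12a*, *Cd40*, *Tnfrsf26*, *Tnfrsf23* and *Tnfrsf22* in the same 33 libraries and groups, in CPM on a linear axis, with 1 point per library, a bar at the group mean and whiskers of 1 SD. *Tnfrsf26* and *Tnfrsf23* rise over the 3 AM groups without overlap, *Tnf* is lowest in CD11b+ AMs among AMs, and *Tnfrsf12a* falls in CD11b+ AMs.

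CD11b+ AMs also differed from the other AMs in genes known as markers of other cells. Summed neutrophil markers (7 of 8 in the files, led by *S100a8*) were 6.65 to 9.80 CPM in CRE- AMs, 716 to 2299 CPM in CD11b- AMs and 7835 to 10088 CPM in CD11b+ AMs, none at 0 in the last group and *Ngp* and *Camp* at 0 in CD11b- AMs. The sum in CD11b+ AMs was carried by *S100a8*, *S100a9* and *Cxcr2*, with means of 4464, 3684 and 577 CPM. There, *Mmp9*, *Ngp*, *Retnlg* and *Camp* had means of 14.7, 3.34, 2.85 and 0.783 CPM. Summed lung epithelial markers (8 of 8) were 115 to 153, 504 to 602 and 1329 to 1697 CPM, and 5 of the 8 were called higher in CD11b+ than in CRE- AMs. That sum was carried by *Krt8* (means of 0.16, 57.3 and 563 CPM in CRE-, CD11b- and CD11b+ AMs), *Epcam* (15.9, 179 and 513 CPM) and *Cdh1* (94.0, 271 and 344 CPM), and the study uses EpCam as a marker of AMs without *Zeb2*. Of the secretory genes, *Sftpa1* (3.63, 7.16 and 10.9 CPM) was called higher in CD11b+ than in CRE- AMs. *Sftpc* (13.6, 18.9 and 23.6 CPM), *Sftpb* (0.359, 0.686 and 0.549 CPM) and *Scgb1a1* (5.49, 7.78 and 6.75 CPM) were not called. Of the 7 AM markers, 2 were called higher and 2 lower in CD11b+ than in CRE- AMs. *Marco* (means of 409 and 952 CPM in CRE- and CD11b+ AMs) and *Car4* (536 and 1574 CPM) were higher, and *Siglecf* (533 and 221 CPM) and *Fabp4* (88.1 and 16.5 CPM) lower. The part of other cell types in the members' changes was not tested.

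Whether the change from CRE- to CRE+ cells differed between both tissues was tested with an interaction term. This was the mean log2 change of both CRE+ groups in KCs less that in AMs. Of 32 members tested, 2 were higher and 2 lower, against 3.5% and 4.65% of all 13294 genes. *Tnfrsf18* (log2 difference 3.49, SE 0.48, edgeR adjusted p = 1.42e-06) rose more in KCs, and *Tnfrsf12a* (log2 difference 1.35, SE 0.37, edgeR adjusted p = 0.00844) fell in AMs relative to KCs. *Cd40* (log2 difference -3.05, SE 0.77, edgeR adjusted p = 0.00389) and *Tnfsf9* (log2 difference -3.06, SE 0.99, edgeR adjusted p = 0.0253) rose more in AMs on the log2 scale. Their means in CRE- AMs were near 0, at 0.057 and 0.113 CPM. In CPM, mean *Cd40* went from 44.5 in CRE- KCs to 70.2 in Tim4- KCs, and from 0.057 in CRE- AMs to 2.70 in CD11b+ AMs. The *Cd40* call was lost without CD11b- replicate 5 (log2 difference -2.33) and with limma-voom (adjusted p = 0.0924), and that of *Tnfsf9* without CRE- AM replicates 2, 3 or 5 or CRE- KC replicate 1 (log2 difference -2.88 to -2.70). Liver and lung also differ in the Cre line and in the sorting marker, so tissue, Cre line and sort cannot be told apart.

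**Figure D4:**
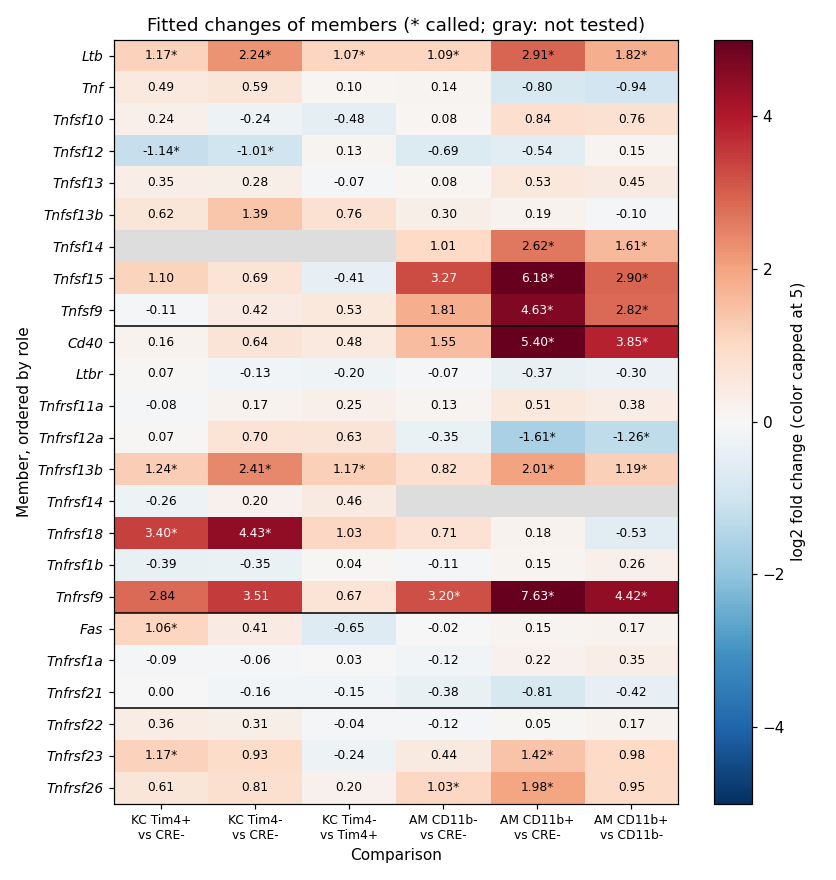
Fitted log2 fold changes, printed and colored in each cell (red higher, blue lower, color capped at 5), of the members with a mean of at least 5 CPM in any group or a call, as rows by role, in 6 comparisons within a tissue, as columns. A star marks a call and gray a member that was not tested. *Ltb* is starred in all 6 columns, *Tnfrsf18* in both columns of KCs against CRE- KCs, and the largest value is that of *Tnfrsf9* in CD11b+ against CRE- AMs.

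The genes that carry the signal of these receptors were followed in a list of 30 adaptors and signalling genes, all of which were tested. In CRE- KCs, 7 were higher and 2 lower than in CRE- AMs, in all near the share of all genes (20.9% higher and 12.4% lower). *Ripk3* (2.88) and *Mlkl* (2.62), the kinase and the effector of necroptosis, and *Map3k14* (2.02), the kinase NIK of the non-canonical NF-κB pathway, had the largest log2 fold changes upwards, and *Tnfaip3* (-2.66), the NF-κB inhibitor A20, the largest downwards. *Tab2* (1.68), an adaptor of the kinase TAK1, and *Birc3* (1.46), the ubiquitin ligase cIAP2, were also higher in KCs. In both CRE+ fractions of KCs, 1 of the 30 was higher than in CRE- KCs, against 1.94% and 3.43% of all genes, and none lower, where an unadjusted edgeR p under 0.05 gave 4 lower in Tim4+ and 3 lower in Tim4- KCs and DESeq2 and limma-voom called 0 lower. That gene was *Traf1*, an adaptor with a mean under 5 CPM, which is named after its values were seen (log2 fold change 1.45 in Tim4+ and 1.70 in Tim4- KCs, edgeR adjusted p = 0.036 and 0.0042). The Tim4+ call of *Traf1* was lost with limma-voom, which called 0 of the 30 there.

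In CD11b- AMs, 0 of the 30 were called against CRE- AMs by edgeR, DESeq2 or limma-voom, with 4 higher and 5 lower at an unadjusted edgeR p under 0.05. The comparison of both CRE+ fractions of KCs also gave 0 calls by the 3 tools, with 5 higher and 2 lower unadjusted. Of all genes, edgeR called 3.98% higher and 2.51% lower in CD11b- AMs, and 0.44% and 5.01% between those KC fractions. In CD11b+ AMs, 2 of the 30 were higher and 1 lower than in CRE- AMs, against 9.57% and 5.68% of all genes. *Ripk3* rose from 14.2 ± 2.89 CPM (SD, n = 5) in CRE- AMs to 79.8 ± 12.3 CPM (SD, n = 5) in CD11b+ AMs (log2 fold change 2.48, SE 0.21, edgeR adjusted p = 9.31e-09), with 14.8 ± 6.43 CPM (SD, n = 5) in CD11b- AMs. *Tnfaip3* rose from 174 ± 25.9 CPM to 365 ± 49.8 CPM (log2 fold change 1.06, SE 0.11, edgeR adjusted p = 1.48e-07), and *Traf5*, an adaptor of several TRAF-binding receptors, fell from 22.8 ± 2.41 CPM to 7.74 ± 1.17 CPM (log2 fold change -1.57, SE 0.14, edgeR adjusted p = 1.28e-08). Against CD11b- AMs, *Ripk3* was higher (log2 fold change 2.41, SE 0.21, edgeR adjusted p = 4.05e-08), and *Mlkl* (log2 fold change -1.26, SE 0.28, edgeR adjusted p = 0.00136) and *Traf5* (log2 fold change -1.06, SE 0.14, edgeR adjusted p = 5.47e-06) were lower. *Ripk3* and *Mlkl*, which act together, thus went opposite ways between the CD11b+ and CD11b- fractions. The interaction term called 1 of the 30 higher and 0 lower, against 3.5% and 4.65% of all genes. That gene was *Traf5*, with a log2 difference of 1.36 (edgeR adjusted p = 4.98e-06).

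Of 8 genes for the shedding and processing of TNF family proteins, 2 were called higher and 1 was called lower when CRE- KCs were set against CRE- AMs, where the shares of all genes were 20.9% and 12.4%. *Timp3*, an inhibitor of the TNF sheddase ADAM17, was higher (log2 fold change 4.70), as was *Adam10* (1.23), which encodes a related sheddase, and *Furin*, a proprotein convertase, was lower (-1.93). In Tim4- KCs 2 of the 8 were lower than in CRE- KCs and 0 higher, against 5.39% and 3.43% of all genes. They were *Timp3* (13 ± 2.95 CPM against 41.6 ± 14.6 CPM, SD, n = 6 each, log2 fold change -1.70, SE 0.28, edgeR adjusted p = 1.17e-04) and *Rhbdf1* (log2 fold change -1.31, SE 0.32, edgeR adjusted p = 0.00425), which encodes iRhom1, a partner of ADAM17. Both were also lower than in Tim4+ KCs, *Timp3* with a log2 fold change of -2.29 and *Rhbdf1* with -1.48, where 5.01% of all genes were called lower. Summed liver endothelial markers (8 of 8 in the files, none at 0) were 580 to 1919 CPM in CRE-, 1089 to 3322 in Tim4+ and 355 to 514 CPM in Tim4- KCs, and their part in the *Timp3* level was not tested. *Rhbdf1* also fell in CD11b- (log2 fold change -2.56, SE 0.60, edgeR adjusted p = 0.00345) and CD11b+ AMs (log2 fold change -1.77, SE 0.58, edgeR adjusted p = 0.0176). In Tim4+ KCs, 0 of the 8 were called by edgeR, DESeq2 or limma-voom, with 1 higher and 1 lower at an unadjusted edgeR p under 0.05. Of all genes, edgeR called 1.94% higher and 0.376% lower there. The interaction term called 1 of the 8 higher and 0 lower, against 3.5% and 4.65% of all genes. That gene was *Rhbdf1*, with a log2 difference of 1.60 (edgeR adjusted p = 0.0436).

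Of 4 further family genes that the naming rule leaves out, *Relt*, a TRAF-binding receptor, was the one with enough counts. It was at 20.2 ± 3.49 CPM (SD, n = 6) in CRE- KCs, 31.6 ± 4.09 CPM (SD, n = 6) in Tim4+ KCs and 46.9 ± 12.9 CPM (SD, n = 6) in Tim4- KCs, and was called in the last (log2 fold change 1.20, SE 0.17, edgeR adjusted p = 1.93e-05). In CRE- AMs it was at 56.2 ± 12.3 CPM (SD, n = 5), above CRE- KCs (log2 fold change -1.45, SE 0.15, edgeR adjusted p = 1.13e-06). The *Relt* change differed between the tissues, with a log2 difference of 1.43 (edgeR adjusted p = 3.80e-06).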

How the data were processed

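RNA of sorted KCs and AMs was sequenced in bulk in 33 libraries, and each sample was grouped by its title. The authors used Trimmomatic for trimming, TopHat2 for alignment and HTSeq-count for counting, and their submission notes name FastQC 0.11.4, Trimmomatic 0.35, TopHat2 2.1.0, SAMtools 0.1.18 and mm10. The annotation and strand setting of the counting are not given in the sources used here. The deposited values are raw counts per gene. The 5 rows that name no gene were left out. Reads in no feature were 4.52% to 8.90% and ambiguous reads 1.19% to 1.39% of the counts and tallies of a library.

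Genes were filtered with filterByExpr, scaled by TMM factors and tested with edgeR 4.0.16 in R 4.3.3 (glmQLFit and glmQLFTest, Benjamini-Hochberg over all genes tested). The authors normalized with limma-voom, which was run as an alternative with limma 3.58.1, as was DESeq2 1.42.0. KC comparisons were fitted on all KC libraries, AM comparisons on all AM libraries, CRE- KCs against CRE- AMs on those groups, and the interaction on all 33. The test was checked on simulated data. Other alternatives were RLE factors, no filter or a minimum of 10 counts in each library, calls without the fold cut-off, only the groups compared or all 33 libraries, a term for libraries with *Ddx3y* counts, a replicate block and leaving out each library in turn.

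The members and gene lists were chosen with earlier results of these data known. Members with a mean of at least 5 CPM in any group are described in full, others that were called with their group means, and the rest by their range. Of the pathway lists, called genes with a mean of at least 5 CPM in a compared group are named, at most the 6 with the largest change in a comparison. Intervals and the limit of 3 counts cover counting error only. No pair of libraries within a group differed by as little as sampling noise. Same-numbered libraries deviated together from their group means in Tim4- and Tim4+ KCs (6 of 6 pairs, r 0.165 to 0.319 across genes), so these numbers were read as pairs from the data, not from the labels. The main tests did not use these pairs, and a replicate block was run as an alternative only. Positions are of GENCODE M21 (GRCm38) and promoter windows of RefSeq (GRCm38.p6). No columns of the authors' own comparisons were used.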

Additional observations from a re-analysis of the deposited data

Results flagged for a closer look

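Dixon's criterion was applied to 144 groups of 5 or 6 libraries (24 members in 6 groups). In 15 of them, the highest or lowest library was set apart from the others. The rate of about 1 in 20, or 7.2, holds for normally distributed values. A group with counts in 1 library only has a ratio of 1 whatever its level, so 15 against 7.2 cannot show an excess. *Tnfrsf9* was highest at 6.68 CPM in Tim4- KC replicate 3, which also had the highest summed NK cell markers of the KC libraries, and at 0.204 CPM in CRE- AM replicate 5, the one library of its group with counts. *Tnfsf13b* was at 8.29 CPM in Tim4+ KC replicate 1 and lowest at 1.40 CPM in CRE- AM replicate 4. *Tnfsf15* was at 2.10 CPM in Tim4- KC replicate 1 and at 0.102 CPM in CRE- AM replicate 5. *Tnfsf12* was at 17.2 CPM in CD11b+ AM replicate 1 and *Tnfrsf22* at 17.0 CPM in CD11b+ AM replicate 4. *Fas* was at 10.5 CPM in Tim4- KC replicate 2, and *Tnfrsf1b* at 441 CPM in Tim4+ KC replicate 2. Low values were those of *Tnfrsf13b*, at 2.03 CPM in CRE- AM replicate 3, and of *Tnfrsf21*, at 369 CPM in CRE- AM replicate 1. *Cd40* was highest at 0.646 CPM in CD11b- AM replicate 5. *Tnfrsf14* was at 0.0963 CPM in CRE- AM replicate 4 and 0.0507 CPM in CD11b- AM replicate 1, each the one library of its group with counts.

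The interaction term set 4 members apart between both tissues. The mean log2 change of the CRE+ KC groups less that of the CRE+ AM groups was 3.49 for *Tnfrsf18*, 1.35 for *Tnfrsf12a*, -3.05 for *Cd40* and -3.06 for *Tnfsf9*.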

How the results depend on the processing

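No member named in a comparison changed its direction under any alternative. The count of members called moved by over 1.5 times as follows. With at least 10 counts in every sample it went from 4 to 2 in Tim4- against CRE- KCs, from 10 to 5 in CD11b+ against CRE- AMs, from 8 to 3 in CD11b+ against CD11b- AMs and from 4 to 1 in the interaction, where fewer members were tested. Without the fold cut-off the same counts were 8, 16, 18 and 8, and that of CD11b- against CRE- AMs went from 3 to 7. In the last comparison limma-voom called 1 and DESeq2 5, and the cause was not tested. The interaction on Tim4- KCs, CD11b+ AMs and the CRE- groups alone called 9, which added *Tnf* (log2 difference 1.39), *Tnfrsf14* (-2.73), *Tnfrsf26* (-1.17), *Tnfsf10* (-1.08) and *Tnfsf15* (-5.48). Calls gained with DESeq2 were *Tnfsf9* and *Tnfsf15* in CD11b- AMs (adjusted p = 0.0387 and 0.0244) and *Tnfrsf9* and *Tnfsfm13* in Tim4- KCs. Leaving out 1 library at a time (77 fits) gave 13 to 16 members in CRE- KCs against CRE- AMs, 5 to 6 in Tim4+ and 3 to 6 in Tim4- against CRE- KCs, and 2 to 3 in Tim4- against Tim4+ KCs. In AMs it gave 1 to 4 in CD11b- against CRE-, 10 to 10 in CD11b+ against CRE- and 7 to 10 in CD11b+ against CD11b-, and 3 to 5 in the interaction. The CD11b- count fell furthest without CD11b- replicate 3, CRE- AM replicate 1 or CRE- AM replicate 3. With a replicate block the counts were 13, 6, 4, 2, 3, 10, 8 and 4 in the same order, which lost *Tnfsf13b* in CRE- KCs against CRE- AMs (edgeR adjusted p = 0.0996) and no other call. CD11b+ and CD11b- AMs correlated best with their own number in 5 of 5 pairs (r 0.0858 to 0.147), a hint from the data that their numbers may pair. RLE factors moved no level of the members described in full by over 1 SD (0 of 120, at most 2.90%), and their median was 12.5 CPM against 12.3. Depth limits the members near 3 counts per library, whose absence cannot be shown, and overlapping or related genes (*Tnfsf12*, *Tnfrsf9*, the decoy receptor genes) could not be separated.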

Other observations

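*Tnfrsf17* (BCMA), a receptor for BAFF and APRIL that is best known from plasma cells, did not pass the filter on low counts in the comparisons above. It had 71 counts over CRE- KCs, in 6 of 6 libraries, 36 counts over Tim4+ KCs, in 5 of 6, and 4 counts over Tim4- KCs, in 2 of 6. With no filter on low counts it was lower in Tim4- KCs than in CRE- KCs (log2 fold change -3.85, edgeR adjusted p = 0.0124). *Tnfrsf13b*, which binds the same ligands, rose in these cells.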
